A study of Mus musculus with 12 samples.

Results

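Transcripts of 4 genes of the cardiac sodium pump system were followed across the left ventricle (LV) and right ventricle (RV) of control and Wnt LOF mouse hearts: Atp1b1, which encodes a beta subunit of the pump, and the FXYD genes Fxyd1, Fxyd5 and Fxyd6. They were taken by gene symbol from a table of read counts for 40594 genes, and 4 of 4 had enough reads to be tested among 15494 genes. RNA had been extracted from whole ventricle tissue of adult mice, and the 12 RNA-seq libraries formed 4 groups of 3: control LV, control RV, Wnt LOF LV and Wnt LOF RV. The genotype is labelled only as control or as Wnt LOF, where LOF is read here as loss of function of the Wnt signalling pathway. The gene targeted, the allele, any Cre driver and the strain are not stated in the labels. The series title places the hearts in a study of Wnt programming and arrhythmia in the RV and the LV. Nothing in the labels ties each library to its own mouse, so a p-value here measures only how these libraries spread. Libraries of a group differed in a Y-linked gene and in autosomal genes that were either high or low, as given below, so their spread is not technical alone.

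The sodium pump, or Na,K-ATPase, spends ATP to move sodium out of the cell and potassium in. Its alpha subunit binds ATP and the ions, and its beta subunit is needed for the alpha subunit to fold and to reach the plasma membrane. FXYD proteins are small proteins with a single membrane span that sit beside the alpha subunit and tune how the pump handles its ions. In heart muscle the main one is phospholemman, the product of Fxyd1, which restrains the pump until it is phosphorylated by protein kinase A or protein kinase C. The sodium gradient that the pump maintains drives the sodium-calcium exchanger, and so bears on the calcium available for contraction.

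The starts of these genes are shown because the study manipulated a pathway that acts on transcription through TCF/LEF factors. The windows hold the 250 bases before the start of each gene, from RefSeq on GRCm38.p6, 5′ to 3′ on the strand of the gene. All 4 genes were matched, and capitals mark a CCAAT box on either strand. The Fxyd5 window is not shown because it overlaps annotated exons of Fxyd5 and of its neighbour Fxyd7.
Atp1b1, chr1:164458356-164458605, minus strand: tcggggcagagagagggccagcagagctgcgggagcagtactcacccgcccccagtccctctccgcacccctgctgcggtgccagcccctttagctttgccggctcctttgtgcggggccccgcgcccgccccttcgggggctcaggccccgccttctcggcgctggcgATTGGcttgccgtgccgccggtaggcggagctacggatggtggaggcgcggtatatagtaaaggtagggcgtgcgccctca
Fxyd1, chr7:31054854-31055103, minus strand: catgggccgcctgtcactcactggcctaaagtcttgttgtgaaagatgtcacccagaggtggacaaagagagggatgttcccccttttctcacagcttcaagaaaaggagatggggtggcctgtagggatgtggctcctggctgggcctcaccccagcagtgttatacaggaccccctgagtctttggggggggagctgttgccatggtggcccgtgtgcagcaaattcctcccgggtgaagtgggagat
Fxyd6, chr9:45369935-45370184, plus strand: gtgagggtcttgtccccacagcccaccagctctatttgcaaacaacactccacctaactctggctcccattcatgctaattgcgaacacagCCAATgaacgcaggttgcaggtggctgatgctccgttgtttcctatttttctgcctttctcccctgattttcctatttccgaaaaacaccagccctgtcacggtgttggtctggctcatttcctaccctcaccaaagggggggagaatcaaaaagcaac

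The Atp1b1 window had a GC content of 70.4%, against 57.2% for Fxyd1, 55.6% for Fxyd5, 50.4% for Fxyd6 and a median of 52% over 27025 mouse promoters of equal length. It held a CCAAT box, read as ATTGG on the strand of the gene, at 81 to 77 bases before the start, and 2 GC boxes (GGGCGG, here on the opposite strand). In the Fxyd6 window a CCAAT box lay 159 to 155 bases before the start. No motif searched for was found in the Fxyd1 window, which lies in an intron of longer annotated Fxyd1 transcripts. TCF/LEF letters (CTTTG followed by any pair of A or T letters, on either strand) were in 0 of the 4 windows and in 14.9% of all promoters. A CCAAT box was in 34.5% of all promoters, a GC box in 32.9%. These matches describe the letters of the windows only. In the order of protein-coding genes of the mouse genome (RefSeq), Fxyd5, Fxyd7, Fxyd1, Lgi4 and Fxyd3 follow each other on chromosome 7, and Fxyd6 lies next to Fxyd2 on chromosome 9.

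Libraries held 13274922 to 19173391 counted reads, of which 4.62% to 8.29% were from mitochondrial genes. All 8 cardiomyocyte markers, Mybpc3, Myl2, Ryr2 and Tnnt2 among them, were above 1 CPM in every library. Ctnnb1, the gene of the Wnt effector beta-catenin, was at 426 to 598 CPM (counts-per-million, on TMM-adjusted library sizes) in control LV and 395 to 532 CPM in Wnt LOF LV, which overlap. It was at 511 to 560 CPM in control RV and 352 to 454 CPM in Wnt LOF RV, which do not. In that direction 3.94% of all genes tested were separated too. Axin2, a further gene of the Wnt pathway, overlapped between genotypes in both ventricles. It was at 5.11 to 7.10 CPM in control LV and 3.48 to 8.06 CPM in Wnt LOF LV. In control RV it was at 4.57 to 8.15 CPM and in Wnt LOF RV at 4.47 to 7.28 CPM. Both Wnt LOF libraries numbered 1 went against their ventricle label: Wif1, which was at 11.99 to 18.4 CPM in the other RV libraries and at 1.63 to 3.18 CPM in the other LV libraries, was at 13.5 CPM in the library labelled Wnt LOF LV 1 and at 2.55 CPM in the one labelled Wnt LOF RV 1. The library control LV 2 had the states of both in 14 of 14 autosomal genes that were either high or low across libraries, and those of control RV 2 in 10 of 14. LV and RV libraries of equal number shared 14, 10 and 13 of the 14 states in control hearts for numbers 1, 2 and 3. In Wnt LOF hearts they shared 14, 13 and 14. Libraries of the same group shared the state of 2 to 9 of the 14. In each group the library numbered 3, and no other, had the Y-linked gene Ddx3y above 1 CPM. Wnt LOF RV 3 had the atrial muscle gene Myl7 at 10.2 CPM, against at most 1.26 CPM elsewhere. The sum of 7 atrial muscle markers did not single out that library. It was 68.8 to 111 CPM in Wnt LOF RV, highest in Wnt LOF RV 1. Fold changes of the 4 genes are given with and without Wnt LOF LV 1, Wnt LOF RV 1 and control LV 2. Levels, ratios and separations of groups are given for the labels as they stand.

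Atp1b1 and Fxyd1 were abundant, and Fxyd6 and Fxyd5 were low. Over all 12 libraries, levels per kilobase of the median coding transcript were 418 CPM per kilobase for Fxyd1, 79.7 for Atp1b1, 13.9 for Fxyd6 and 11.2 for Fxyd5. Fxyd1 was thus the highest of the 4 on that scale. With the union of all annotated exons as the length, Fxyd1 was at 103, Atp1b1 at 66.7, Fxyd6 at 6.07 and Fxyd5 at 2.19 CPM per kilobase, so the distance between Fxyd1 and Atp1b1 depended on the length used and their order did not. The highest library exceeded the lowest 1.32-fold for Atp1b1, 1.68-fold for Fxyd5, 1.92-fold for Fxyd1 and 2.02-fold for Fxyd6. In bulk tissue, fewer cells of a type and less RNA per cell cannot be told apart.

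**Figure D1:**
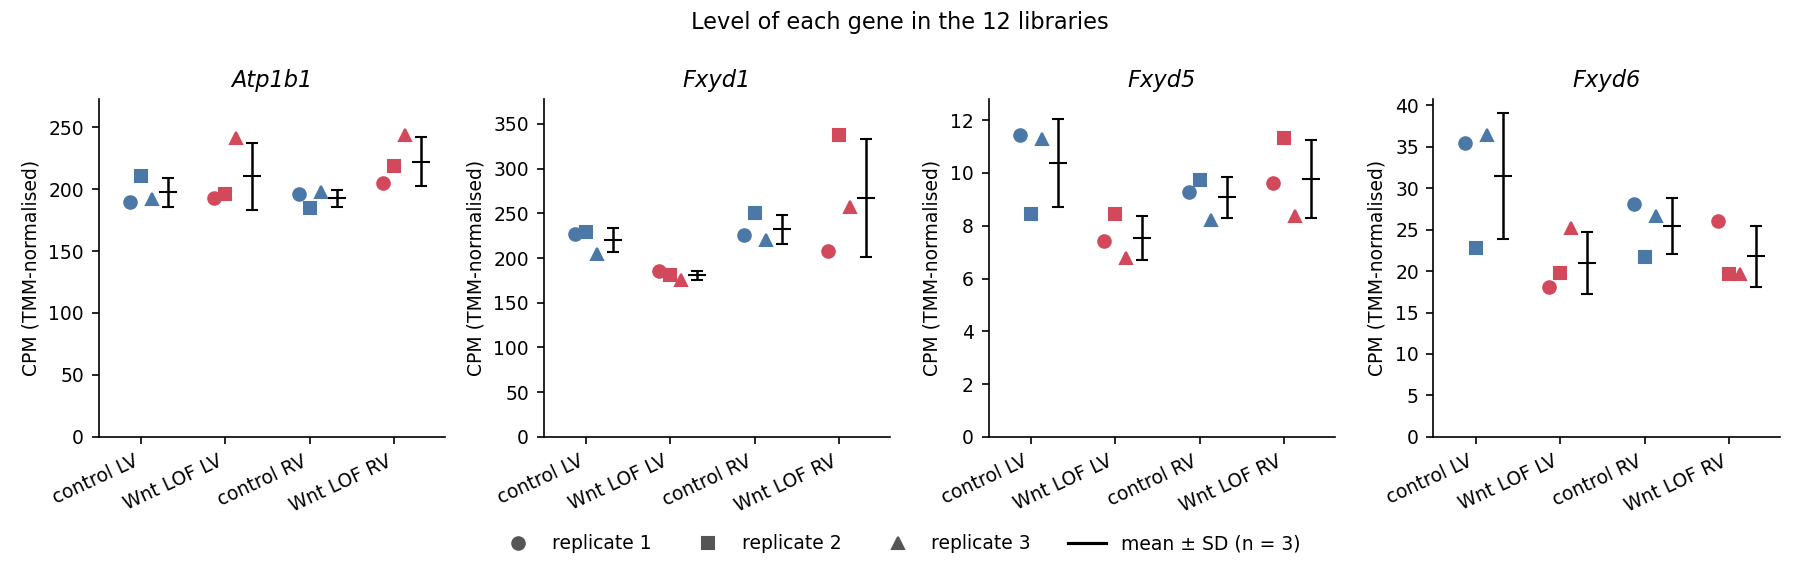
Level of Atp1b1, Fxyd1, Fxyd5 and Fxyd6 (y axis, TMM-normalised CPM, linear from 0) in each library of the 4 groups (x axis). Marker shapes give the library number, and black bars are the mean ± SD of 3 libraries. Fxyd1 in Wnt LOF LV lies at 175 to 186 CPM, below all other libraries, and Fxyd6 is highest in control LV 1 and control LV 3.

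Atp1b1, the beta subunit that pairs with the alpha subunits in heart muscle, was the steadiest of the 4 genes. Its level in control LV was 189, 211 and 192 CPM in libraries 1, 2 and 3, and in control RV 196, 185 and 197 CPM. In Wnt LOF LV it was 193, 196 and 241 CPM, and in Wnt LOF RV 205, 219 and 243 CPM. The 3 Wnt LOF RV libraries thus lay above the 3 control RV libraries, while in the LV the groups overlapped and library 3 of Wnt LOF stood highest. Group means were 222 ± 19.5 CPM in Wnt LOF RV, 210 ± 27.0 in Wnt LOF LV, 197 ± 11.7 in control LV and 193 ± 6.73 in control RV (SD, n = 3), and no neighbours in that order were separated. A stretch of 575 bases, 18.7% of the Atp1b1 exons in GENCODE M21, is shared with Nme7 on the opposite strand, which had 463 reads over all libraries against 41213 for Atp1b1. Whether the counting used strand is not stated, so reads from the shared stretch cannot be assigned.

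Fxyd1, which encodes phospholemman, was at 227, 230 and 204 CPM in control LV 1, 2 and 3. In control RV it was at 226, 251 and 220 CPM. In Wnt LOF LV its level was 186, 181 and 175 CPM, so every library of that group was below every other library. In Wnt LOF RV it was 207, 337 and 257 CPM, the widest spread of the 4 groups, with library 2 far above the rest. The group means followed the order Wnt LOF RV (267 ± 65.5 CPM), control RV (232 ± 16.3), control LV (220 ± 13.8) and Wnt LOF LV (181 ± 5.21, SD, n = 3). Of neighbours in that order, the ranges of control LV and Wnt LOF LV did not overlap, and the others did. That separation rests on the labels of both Wnt LOF libraries numbered 1, which go against their ventricle. With those labels exchanged, Wnt LOF LV would hold a library at 207 CPM, above control LV 3 at 204 CPM.

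Fxyd5, which encodes dysadherin, a glycoprotein known to weaken cell adhesion as well as to associate with the pump, was counted with 121 to 222 reads per library. It was at 11.4, 8.44 and 11.3 CPM in control LV, at 9.26, 9.73 and 8.23 CPM in control RV, at 7.41, 8.43 and 6.79 CPM in Wnt LOF LV, and at 9.61, 11.3 and 8.37 CPM in Wnt LOF RV. The Wnt LOF LV libraries were lower than the control LV libraries, but the nearest pair, control LV 2 at 8.44 CPM and Wnt LOF LV 2 at 8.43 CPM, all but touched. Means were 10.4 ± 1.68, 9.77 ± 1.48, 9.07 ± 0.772 and 7.54 ± 0.827 CPM in control LV, Wnt LOF RV, control RV and Wnt LOF LV (SD, n = 3), and each neighbouring pair in that order overlapped.

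Fxyd6, which encodes phosphohippolin, a pump regulator described mainly in brain, was at 35.4, 22.8 and 36.4 CPM in control LV. Control RV had 28.1, 21.7 and 26.6 CPM. Wnt LOF LV had 18.03, 19.8 and 25.2 CPM, and Wnt LOF RV had 26.0, 19.6 and 19.7 CPM. Control LV 1 and 3 were the 2 highest of all 12 libraries, while control LV 2, one of the doubted libraries, was below Wnt LOF LV 3. Means were 31.5 ± 7.59 CPM in control LV, 25.5 ± 3.38 in control RV, 21.8 ± 3.69 in Wnt LOF RV and 21.0 ± 3.73 in Wnt LOF LV (SD, n = 3), each neighbouring pair overlapping.

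In the left ventricle, the 3 FXYD genes had lower levels in Wnt LOF hearts and Atp1b1 had not, but no gene passed the test. The log2 fold change of Wnt LOF against control was -0.58 (SE 0.19) for Fxyd6, -0.46 (SE 0.16) for Fxyd5, -0.29 (SE 0.14) for Fxyd1 and 0.09 (SE 0.10) for Atp1b1. With edgeR's quasi-likelihood test the unadjusted p-values were 0.00927, 0.0116, 0.0554 and 0.374, and all 4 Benjamini-Hochberg adjusted p-values were 0.999. Called genes, those with an adjusted p under 0.05, numbered 0 of 4 members and 0 of 15494 genes (0%), and DESeq2 called 0 too. An unadjusted p under 0.05 was reached by 2 of 4 members and by 442 of all genes tested (2.85%). Fxyd1 and Fxyd5 had groups that did not overlap, both lower in Wnt LOF, as did 3.95% of all genes tested in that direction (and 3.95% in the other, which no member did). The members were chosen with earlier results of these data known, so these shares are descriptions. With the labels of both Wnt LOF libraries numbered 1 exchanged, neither gene would be separated. Wnt LOF RV 1 had 207 CPM of Fxyd1, above control LV 3 at 204 CPM. It had 9.61 CPM of Fxyd5, above control LV 2 at 8.44 CPM. In the authors' deposited table of this comparison, log2 fold changes were -0.60 for Fxyd6, -0.42 for Fxyd5, -0.27 for Fxyd1 and 0.07 for Atp1b1, with adjusted p-values of 0.841, 0.841, 0.841 and 0.912.

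Without the 3 doubted libraries the LV differences were -0.67 (SE 0.15) for Fxyd6, -0.58 (SE 0.19) for Fxyd5, -0.27 (SE 0.14) for Fxyd1 and 0.20 (SE 0.12) for Atp1b1, again with no call. The Atp1b1 difference rested on Wnt LOF LV 3: without that library it was -0.0064. Leaving out 1 library at a time, Fxyd6 ranged from -0.77 to -0.46, Fxyd5 from -0.59 to -0.38 and Fxyd1 from -0.33 to -0.25. The sum of 8 endothelial markers was 1487 to 1563 CPM in control LV and 1278 to 1500 CPM in Wnt LOF LV, 7 of the 8 had a fold change below 0, their median was -0.16, and none of the 8 was at 0 reads throughout. Over the 12 libraries the log2 level of Fxyd6 had a Pearson r of 0.68 with that sum and of -0.58 with the macrophage sum, given as a description of libraries that share their groups. The part of endothelial cells in the Fxyd6 difference was not tested.

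In the right ventricle, Atp1b1 was the member with the lowest p-value. Its log2 fold change of Wnt LOF against control was 0.21 (SE 0.10, unadjusted p = 0.0582 and adjusted p = 0.99998 with edgeR), and it was 0.20 (SE 0.14) for Fxyd1, 0.11 (SE 0.16) for Fxyd5 and -0.23 (SE 0.19) for Fxyd6. None of the 4 was called, 0 of 15494 genes were (0%, and 0 with DESeq2), and 0 of 4 members against 418 genes (2.7%) had an unadjusted p under 0.05. Atp1b1 alone among the 4 was separated, with higher levels in all 3 Wnt LOF libraries, as were 3.61% of all genes, while no member and 3.94% of all genes were separated lower. With the labels of both Wnt LOF libraries numbered 1 exchanged, Atp1b1 would not be separated. Wnt LOF LV 1 had 193 CPM of it, and control RV 3 had 197 CPM. Without the 3 doubted libraries Atp1b1 was at 0.26 (SE 0.11), Fxyd1 at 0.36 (SE 0.12), Fxyd5 at 0.12 (SE 0.17) and Fxyd6 at -0.37 (SE 0.14, unadjusted p = 0.0232 with edgeR), with no call. Without Wnt LOF RV 2 the Fxyd1 difference was 0.0017, and without Wnt LOF RV 3 that of Atp1b1 was 0.14. In the authors' deposited table, the RV log2 fold changes were 0.21 for Atp1b1, 0.23 for Fxyd1, 0.08 for Fxyd5 and -0.37 for Fxyd6, with adjusted p-values of 0.918 to 0.960. Macrophage markers summed to 242 to 296 CPM in control RV and 269 to 302 CPM in Wnt LOF RV. Over the 12 libraries Atp1b1 had an r of 0.63 with that sum, and its part in the difference was not tested.

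**Figure D2:**
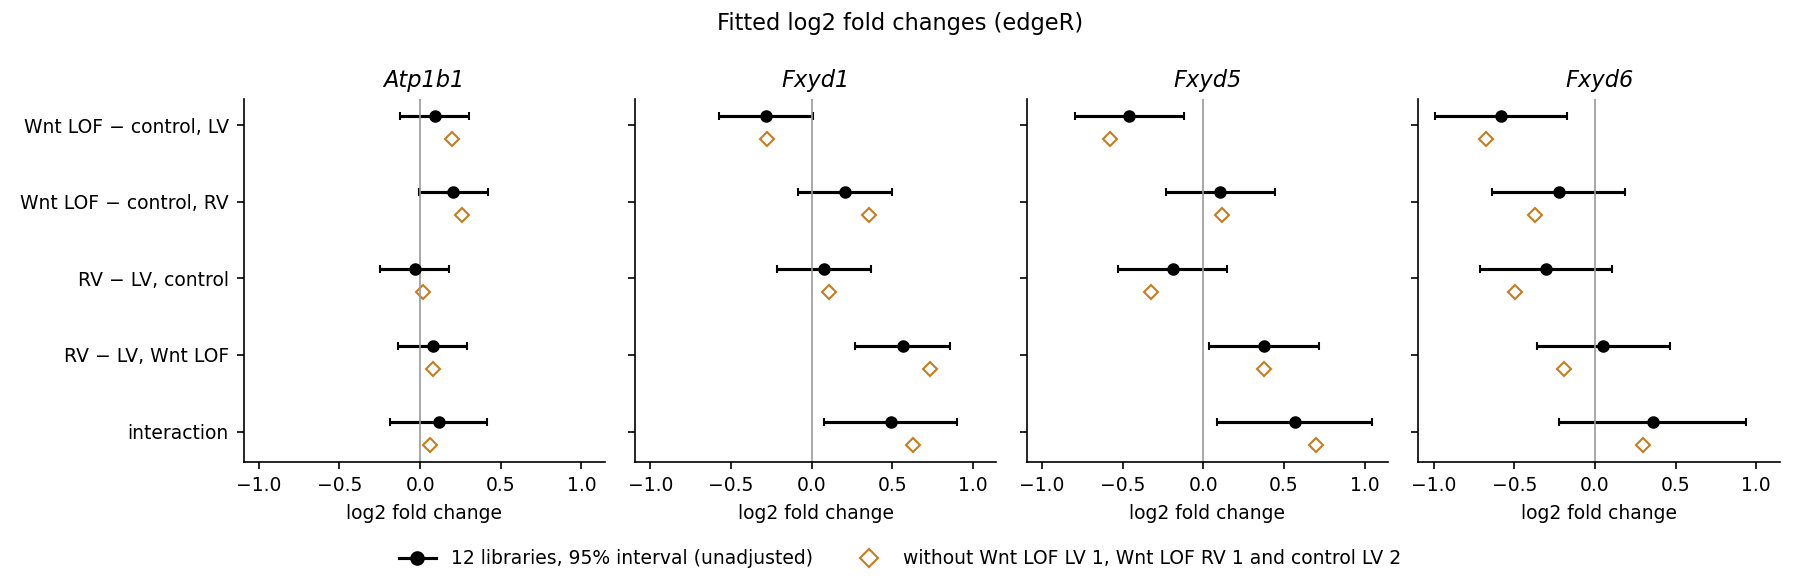
Fitted log2 fold changes (x axis) of the 4 genes in 5 comparisons (y axis). Filled points are edgeR values from 12 libraries with unadjusted 95% intervals, and open diamonds are values without Wnt LOF LV 1, Wnt LOF RV 1 and control LV 2. The interval of Fxyd1 for RV against LV in Wnt LOF hearts, around 0.56, lies farthest from 0, and no comparison had an adjusted p under 0.05.

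Between the ventricles of control hearts, Fxyd6 had the largest difference of the 4 genes, and none of the 4 was called. The log2 fold change of RV against LV was -0.30 (SE 0.19) for Fxyd6, -0.19 (SE 0.16) for Fxyd5, 0.07 (SE 0.14) for Fxyd1 and -0.03 (SE 0.10) for Atp1b1. The 95% intervals, which are unadjusted, ran from -0.22 to 0.37 for Fxyd1 and from -0.25 to 0.18 for Atp1b1. No member was called (adjusted p of 0.922 to 0.988 with edgeR), nor was any of 15494 genes (0%, 0 with DESeq2 too), and 0 of 4 members and 757 genes (4.89%) had an unadjusted p under 0.05. No member was separated, while 6.68% of all genes were higher and 5.92% lower in the RV without overlap. Fxyd6 was lower in the RV for each equal replicate number, with log2 differences of -0.33, -0.07 and -0.45. Without the 3 doubted libraries its value was -0.49 (SE 0.14, unadjusted p = 0.00436, adjusted p = 0.735 with edgeR), and those of Fxyd5, Fxyd1 and Atp1b1 were -0.32 (SE 0.17), 0.11 (SE 0.12) and 0.02 (SE 0.11).

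In Wnt LOF hearts, Fxyd1 had more reads in the RV than in the LV, and it stood near the top of the ranking by p without being called. The log2 fold change was 0.56 (SE 0.14), a 1.48-fold difference, with an unadjusted p of 0.00108, which was rank 6 of 15494 genes, and an adjusted p of 0.9996 with edgeR. Fxyd5 was at 0.37 (SE 0.16, unadjusted p = 0.0330 with edgeR), Atp1b1 at 0.08 (SE 0.10) and Fxyd6 at 0.05 (SE 0.19). There were 0 called members and 0 called genes (0%, 0 with DESeq2 too), and 2 of 4 members against 746 genes (4.81%) had an unadjusted p under 0.05. Of the 4, Fxyd1 alone was separated, higher in the RV, as were 3.36% of all genes, while no member and 3.7% of all genes were separated lower. With the labels of both libraries numbered 1 exchanged, Fxyd1 would overlap, with a library at 207 CPM in the LV and at 186 CPM in the RV. By replicate number, RV minus LV was 0.16, 0.90 and 0.55 for Fxyd1 and 0.37, 0.42 and 0.30 for Fxyd5. The smallest Fxyd1 difference came from the pair numbered 1, whose libraries go against their ventricle labels.

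The size of the Fxyd1 difference moved with single libraries and its direction did not in any alternative run. Without Wnt LOF RV 2 it was 0.36, and without Wnt LOF RV 1 it was 0.71 with an adjusted p of 0.0923, the lowest of any member in any fit with edgeR. Without both Wnt LOF libraries numbered 1 it was 0.74 (SE 0.13, adjusted p = 0.247 with edgeR), and without control LV 2 as well 0.74 (SE 0.14, adjusted p = 0.463). In that last fit Fxyd5 was at 0.38 (SE 0.19), Atp1b1 at 0.08 (SE 0.12) and Fxyd6 at -0.20 (SE 0.15). With the replicate number as a block in edgeR it was 0.54 (SE 0.11, adjusted p = 0.208). Beside it, mesothelial markers summed to 15.2 to 18.8 CPM in Wnt LOF LV and 5.72 to 52.8 CPM in Wnt LOF RV, with the highest sum in Wnt LOF RV 2, the library with the most Fxyd1. Mitochondrial genes took 8.29% of reads in that library, the largest share of the 12. Over the 12 libraries Fxyd1 had an r of 0.59 with the mesothelial sum and 0.58 with the Schwann cell and nerve sum. Fxyd5 had its highest r, 0.51, with the smooth muscle and pericyte sum, which was 1262 to 1384 CPM in Wnt LOF LV and 1269 to 1617 CPM in Wnt LOF RV. The part of these cell types and of that library's quality in the Fxyd1 and Fxyd5 differences was not tested.

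The test of whether genotype and ventricle interact gave 0.57 (SE 0.22) for Fxyd5, 0.49 (SE 0.19) for Fxyd1, 0.36 (SE 0.27) for Fxyd6 and 0.11 (SE 0.14) for Atp1b1 on the log2 scale, where a value above 0 is a larger RV minus LV difference in Wnt LOF hearts. Unadjusted p-values were 0.0237 and 0.0238 for Fxyd5 and Fxyd1, and the adjusted p of all 4 was 0.9996 with edgeR. No member and 0 of 15494 genes were called (0%, 0 with DESeq2 too), and 2 of 4 members and 312 genes (2.01%) were under 0.05 unadjusted, so a different response of the ventricles was not shown for any of the 4. Without the 3 doubted libraries the interaction was 0.70 (SE 0.26) for Fxyd5, 0.63 (SE 0.18) for Fxyd1, 0.30 (SE 0.21) for Fxyd6 and 0.06 (SE 0.16) for Atp1b1, again with no member called. The size moved with single libraries: Fxyd1 was at 0.29 without Wnt LOF RV 2, Fxyd6 ran from 0.20 without Wnt LOF RV 1 to 0.55 without control LV 2, and Atp1b1 from 0.04 without Wnt LOF RV 3 to 0.22 without Wnt LOF LV 3. Without both Wnt LOF libraries numbered 1, Fxyd6 was at 0.11 (SE 0.28).

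Averaged over both ventricles, Wnt LOF against control was -0.40 (SE 0.13) for Fxyd6, -0.18 (SE 0.11) for Fxyd5, -0.04 (SE 0.10) for Fxyd1 and 0.15 (SE 0.07) for Atp1b1. In that average 0 members and 0 genes were called with edgeR (0%), DESeq2 called 5 genes and no member, and 1 of 4 members and 560 genes (3.61%) were under 0.05 unadjusted. Fxyd6 had an unadjusted p of 0.0104 there and, without the 3 doubted libraries, a value of -0.52 (SE 0.10, adjusted p = 0.388 with edgeR). Without them Atp1b1 was at 0.23 (SE 0.08, unadjusted p = 0.0156, adjusted p = 0.981 with edgeR), Fxyd5 at -0.23 (SE 0.13) and Fxyd1 at 0.04 (SE 0.09). Without the doubted libraries, the Wnt LOF side held numbers 2 and 3 of both ventricles. LV and RV libraries shared 13 of 14 high or low states for number 2 and 14 for number 3. Atp1b1 was at 196 and 219 CPM in number 2 and at 241 and 243 CPM in number 3. Libraries of both ventricles may thus share hearts, which these fits of the average do not take into account, so their p-values may be too small. The comparisons share libraries with each other, so their values are not independent.

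Ratios taken within a library do not depend on the scaling between libraries. For every 100 reads of Atp1b1, Wnt LOF LV had 96.2, 92.4 and 72.7 reads of Fxyd1. The corresponding values were 120, 109 and 107 in control LV, 115, 135 and 111 in control RV, and 101, 154 and 106 in Wnt LOF RV, so each of the other 9 libraries was above the 3 of Wnt LOF LV. With the labels of both Wnt LOF libraries numbered 1 exchanged, Wnt LOF LV would hold a library at 101 and Wnt LOF RV one at 96.2. The control libraries, at 107 or more, would stay above Wnt LOF LV. For every 100 reads of Fxyd1, there were 15.6, 9.92 and 17.8 reads of Fxyd6 in control LV and 12.5, 8.64 and 12.1 in control RV. Wnt LOF LV had 9.70, 10.9 and 14.4, and Wnt LOF RV had 12.6, 5.82 and 7.66. For Fxyd6 per Fxyd1 the 4 groups overlapped, and Wnt LOF RV 2, the library with the most Fxyd1, was lowest. These ratios were chosen after values of these genes had been seen and were not tested.

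**Figure D3:**
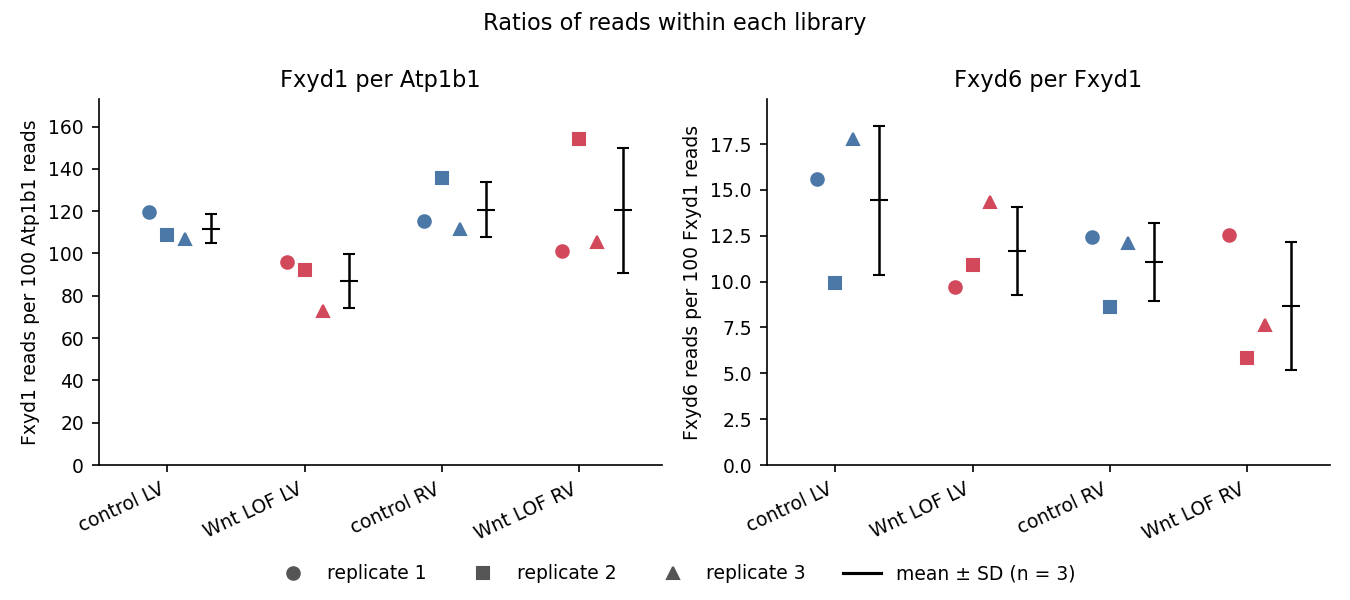
Reads of Fxyd1 per 100 reads of Atp1b1 (left) and of Fxyd6 per 100 reads of Fxyd1 (right), on linear y axes from 0, for each library of the 4 groups (x axis). Marker shapes give the library number and black bars the mean ± SD of 3 libraries. With the labels as they stand, the 3 Wnt LOF LV libraries lie lowest for Fxyd1 per Atp1b1, at 72.7 to 96.2, and the groups overlap for Fxyd6 per Fxyd1.

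The other beta subunit genes of the pump were lower than Atp1b1 and showed no called difference in any of the 6 comparisons with edgeR. Atp1b3 was at 37.0 ± 3.47 CPM in control LV, 38.6 ± 3.36 in control RV, 35.9 ± 2.10 in Wnt LOF LV and 38.3 ± 0.932 in Wnt LOF RV (SD, n = 3). Atp1b2, a beta subunit best known from brain, was at 7.43 ± 1.46, 7.82 ± 0.589, 7.47 ± 0.929 and 8.77 ± 0.703 CPM in that order of groups. Wnt LOF against control gave a log2 value of -0.04 (SE 0.09) for Atp1b3 and 0.01 (SE 0.16) for Atp1b2 in the LV. The RV values were -0.01 (SE 0.09) and 0.17 (SE 0.16). Atp1b4 had too few reads to be tested, at most 7 in any library.

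The FXYD family had 7 listed genes, of which 6 were tested and Fxyd3 was too low. In the LV, 5 of the 6 were below 0 for Wnt LOF against control and 1, Fxyd7, was above, with a median of -0.37. Over all genes tested the median was between -0.0038 and 0.0045 in each of the 6 comparisons. Without the 3 doubted libraries the split was again 5 and 1, with a median of -0.43. In the RV 3 were above and 3 below 0, with a median of -0.024. For RV against LV the split was 3 and 3 in control hearts (median 0.025) and 4 and 2 in Wnt LOF hearts (median 0.21). Without the doubted libraries these became 2 above and 4 below (median -0.14) and 3 and 3 (median 0.14), and the RV comparison of genotypes stayed at 3 and 3 (median -0.00081). Fxyd2, Fxyd4 and Fxyd7 were near the lower limit of the test, with at most 23 reads in any library. Fxyd2, the gamma subunit of the kidney pump, had the largest family difference, 0.96 (SE 0.37, adjusted p = 0.9996 with edgeR) for RV against LV in Wnt LOF hearts, from 8 to 10 reads in Wnt LOF LV and 16 to 23 in Wnt LOF RV. The 3 members make up part of the family, and these counts are descriptions.

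**Figure D4:**
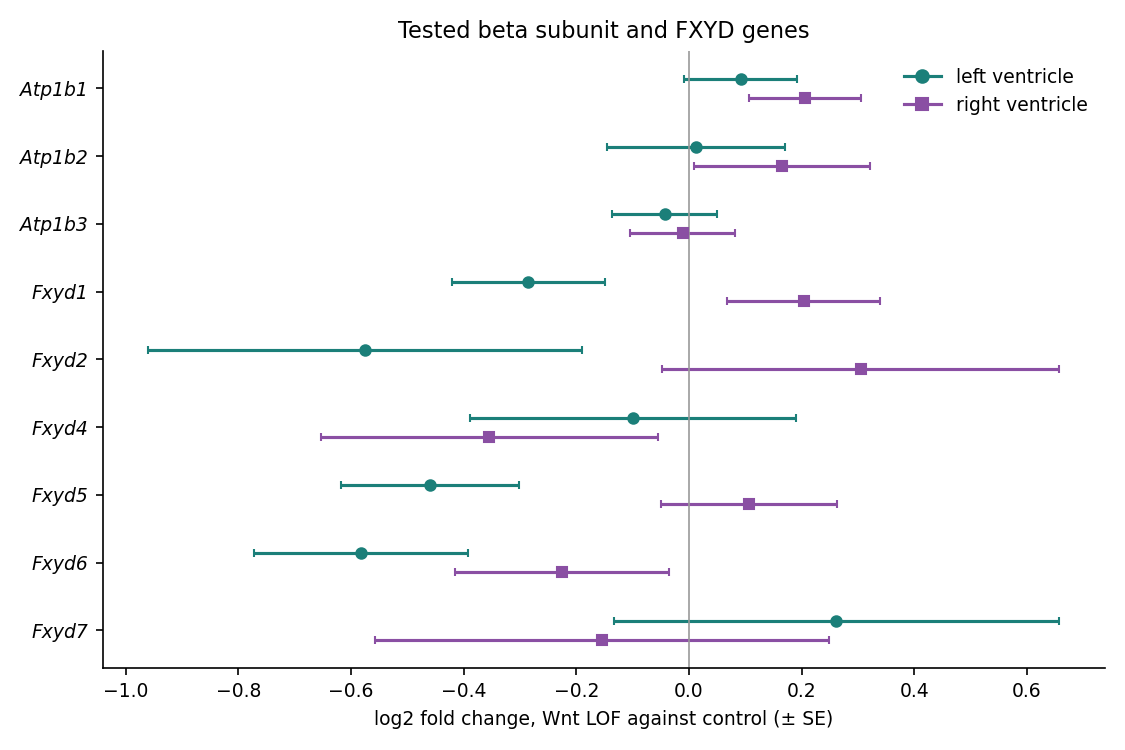
Log2 fold change of Wnt LOF against control (x axis) for 9 tested beta subunit and FXYD genes (y axis), in the left ventricle (circles) and right ventricle (squares). Bars are ± SE from edgeR on 12 libraries. In the LV 5 of 6 FXYD genes lie below 0, while Atp1b1, Atp1b2 and Atp1b3 lie within 1 SE of 0, and no gene was called.

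Sodium-coupled exchangers and related cotransporters, many of which spend the sodium gradient, were a list of 18 genes, of which 16 were tested. None was called in any comparison with edgeR. Wnt LOF against control gave 9 above and 7 below 0 in each ventricle, with medians of 0.013 in the LV and 0.015 in the RV. Slc8a1, the sodium-calcium exchanger, was at 652 ± 104 CPM in control LV, 583 ± 38.9 in control RV, 666 ± 35.9 in Wnt LOF LV and 649 ± 59.8 in Wnt LOF RV (SD, n = 3). Between the ventricles of control hearts, 5 were above and 11 below 0, the median was -0.15, and 6 of 16 had an unadjusted p under 0.05 (4 of 16 without the 3 doubted libraries), against 4.89% of all genes tested. Groups were separated for 2 of 16 with higher and 4 of 16 with lower levels in the RV, against 6.68% and 5.92% of all genes. The sodium bicarbonate cotransporter Slc4a4 was at 0.44 (SE 0.16) and the phosphate transporter Slc20a2 at 0.21 (SE 0.10), both separated with higher levels in the RV. The creatine transporter Slc6a8 was at -0.31 (SE 0.12), separated with lower levels in the RV. In Wnt LOF hearts 6 were above and 10 below 0 for RV against LV, with a median of -0.11, and 0 of 16 had an unadjusted p under 0.05, against 4.81% of all genes. Without the 3 doubted libraries the median there was -0.22 and 4 of 16 had such a p, as did 1275 of 15536 genes in that fit.

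Genes that anchor, phosphorylate or bind the pump and phospholemman were a list of 21, of which 19 were tested and none called with edgeR. In the LV 7 were above and 12 below 0 for Wnt LOF against control (median -0.071), and in the RV 11 above and 8 below (median 0.022). In the RV 2 of 19 were separated, both higher in Wnt LOF, against 3.61% of all genes: Prkca, a protein kinase C that phosphorylates phospholemman, at 0.23 (SE 0.12), and Ppp1r1a, a phosphatase inhibitor with a mean of 0.879 CPM, at 0.61 (SE 0.35). For RV against LV in control hearts 2 of 19 were separated, both higher in the RV, against 6.68% of all genes: Ank2, the ankyrin that holds the pump in place, at 0.17 (SE 0.09), and Nkain4, with a mean of 0.592 CPM, at 1.47 (SE 0.73). In Wnt LOF hearts 1 of 19 was separated, lower in the RV, against 3.7% of all genes. This was Prkaca, the catalytic subunit of protein kinase A, at -0.16 (SE 0.07). Pln, whose product phospholamban is a further kinase target in heart muscle, was at group means of 6274 to 6977 CPM.

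Across the 12 libraries, genes whose log2 level followed each member most closely were sought among 9255 genes with a mean log2 CPM of at least 3. For Atp1b1 these were Paqr4 (r = 0.89), Enpp4 (r = 0.88) and Rom1 (r = 0.88), and the lowest r was that of Slc38a2 (-0.91), a neutral amino acid transporter coupled to sodium. For Fxyd1 they were Aes (0.93), a co-repressor of the Groucho family, Tcn2 (0.93), which carries vitamin B12, and Dynlrb1 (0.92), a dynein light chain, with Fam199x lowest at -0.97. Fxyd5 was followed by Tob1 (0.91), Polb (0.88) and Klf3 (0.86), with Pign lowest at -0.88. Fxyd6 was followed by Ednrb (0.93), the endothelin receptor type B, Elovl5 (0.91) and Rbm22 (0.91), with Pcp4l1 lowest at -0.90. Among the members themselves, r was 0.58 between Fxyd1 and Fxyd5, 0.48 between Fxyd5 and Fxyd6 and -0.42 between Atp1b1 and Fxyd5, and from -0.32 to 0.14 for the other 3 pairs. These are the extremes of many correlations over libraries that share groups, and they are descriptions.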

How the data were processed

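Total RNA of 12 ventricle libraries was sequenced with Illumina libraries, per the labels' protocols. The authors deposited raw counts by Ensembl gene. Per the submitters' processing notes, featureCounts of Subread and edgeR were used. For the aligner, the versions, the genome build and the strand, the entry is: not given in the sources used here. Of 41192 rows for 40594 genes, 598 repeats of equal counts were dropped. In 2 further tables the authors gave, for 14179 genes, their own log2 fold changes with raw and adjusted p-values. Groups were taken from the labels.

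Counts were analysed with edgeR 4.0.16 in R 4.3.3: filterByExpr by group, TMM factors (0.961 to 1.04) and a robust quasi-likelihood model with 1 mean per group over 12 libraries. Benjamini-Hochberg adjustment covered 15494 genes, with a threshold of 0.05, and the standard error was the log2 fold change over the square root of F. Levels are CPM on TMM-scaled library sizes, and correlations used log2 CPM with a prior count of 2. Alternatives were DESeq2 1.42.0, its size factors, total counts, other filters, compared groups only, a replicate block, a term for the libraries with Ddx3y, and libraries left out. The fit was tested on simulated data.

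The members, lists and the rule for named genes (members, the 2 largest differences of a list, separated or lowest-p list genes, and the 3 closest genes and the lowest) were chosen with earlier results of these data known. Genes with no such rank are named for their role, and values of some listed genes are not reported here. The main fit did not pair the ventricles, and the replicate number served as a block in alternative runs only. For LV and RV libraries of equal number, the correlation of deviations from group means was 0.411, 0.29 and 0.517 in control hearts. In Wnt LOF hearts it was 0.191, 0.197 and 0.594. The highest correlation between different numbers was 0.0727 in control hearts, below each of those values. In Wnt LOF hearts it was 0.201, above the values of numbers 1 and 2, so this measure does not show that those numbers are pairs. The high or low autosomal genes are a further measure. By it, LV and RV libraries of equal number shared 13 or 14 of 14 states, except number 2 in control hearts with 10. Control LV 2 shared 14 with both Wnt LOF libraries numbered 1, which carry another genotype label. Between genotypes the correlation for equal numbers was -0.0903 to 0.233 in the LV and 0.0885 to 0.306 in the RV, highest for number 3, the libraries with Ddx3y. The labels give those libraries different genotypes, so the numbers pair no animals there. Promoter windows are from RefSeq on GRCm38.p6 and the gene order from RefSeq. Exon lengths and overlaps are from GENCODE M21, whose build may differ from that of the counts.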

Additional observations from a re-analysis of the deposited data

How the results depend on the processing

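No member was called with any of the alternatives run, and 524 of 536 recomputed fold changes kept their sign. The 12 that reversed belong to differences whose main values ran from -0.04 to 0.11. With total counts Fxyd6 was at -0.0030 for RV against LV in Wnt LOF hearts. Without both Wnt LOF libraries numbered 1, that value was -0.19 and Fxyd1 averaged over both ventricles was 0.026. With control LV 2 left out as well they were -0.20 and 0.041, and Atp1b1 for RV against LV in control hearts was 0.016. Leaving out each library in turn, Fxyd6 for RV against LV in Wnt LOF hearts ran from -0.10 to 0.19, Atp1b1 for RV against LV in control hearts from -0.069 to 0.013, Atp1b1 in the LV from -0.0064 to 0.15, Fxyd1 averaged over both ventricles from -0.14 to 0.039 and Fxyd5 in the RV from -0.012 to 0.20. The cause was not tested.

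The replicate block changed no call of a member: Fxyd1 for RV against LV in Wnt LOF hearts was at 0.54 (adjusted p = 0.208 with edgeR), and for the genotype comparisons, where numbers do not pair animals, Fxyd6 in the LV was at -0.56. Counts of all called genes did move from 0 in the main analysis: for RV against LV in control hearts to 326 with the block and the compared groups only, to 9 with the compared groups only and to 2 without the doubted libraries. DESeq2 called 5 genes in the average over ventricles. Other settings called 1 or 2 genes at most, none of them a member. DESeq2 gave no adjusted p for Fxyd5 in 1 comparison. Fxyd5, with 121 to 222 reads per library, is the member with the least depth.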
